A study of Arabidopsis thaliana with 8 samples.

Results

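Chloroplasts make hydrogen peroxide in the light, because electrons from photosystem I can pass to oxygen. Ascorbate peroxidases reduce this peroxide with ascorbate, and peroxiredoxins reduce it with their own thiols. Thioredoxins carry electrons from ferredoxin to the disulfides of chloroplast enzymes and so couple enzyme activity to light, and plastoglobules, lipid droplets attached to thylakoids, store and recycle plastoquinone and other prenylquinones. 5 nuclear genes of these systems were followed in leaves of an Arabidopsis thaliana line with a disrupted FBN5, which encodes a plastid fibrillin linked to plastoquinone synthesis. They were SAPX (AT4G08390) and TAPX (AT1G77490), chloroplast ascorbate peroxidases, SRX (AT1G31170), a sulfiredoxin, TRXF2 (AT5G16400), an f-type thioredoxin, and NDC1 (AT5G08740), a quinone reductase of plastoglobules. The 5 were picked by symbol, out of 16546 genes that a probe set of the array names alone, and each had 1 such probe set.

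Total leaf RNA was hybridised to 8 one-colour Affymetrix arrays, 4 labelled fbn5-1, a T-DNA insertion mutant, and 4 labelled WT. Both groups were of the Col-0 ecotype, were 3 weeks old, grew at 25 °C and 60% humidity under 16 h of light and 8 h of dark on 0.5x MS medium with 1% sucrose, and were not treated. The labels do not say whether the 4 samples of a genotype were separate plants or cultures, so the errors and p-values cover only how these samples vary, part of which may be technical. Levels are log2 signals per probe set, and differences are arrays labelled fbn5-1 minus arrays labelled WT on that scale, with the standard error (SE) from limma. In bulk tissue, fewer cells of a type and less RNA per cell cannot be told apart.

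FBN5 (AT5G09820) itself was not lower in the mutant arrays. Arrays labelled fbn5-1 1 to 4 gave log2 signals of 4.71, 4.52, 4.76 and 4.58, against 3.54, 3.35, 3.43 and 5.15 on those labelled WT 1 to 4. The position of its probe set with respect to the T-DNA is unknown, and its signal may therefore be no check of the labels. The difference of 0.78 on all 8 arrays (SE 0.36, adjusted p = 0.173 by limma) was not called, nor was it in 7 of the 8 fits that leave out 1 array; without WT array 4 it was 1.20 (adjusted p = 0.000534). Genotypes are named by their array labels throughout. WT array 4 stood apart: its mean correlation with the other arrays of its group over 17147 tested probe sets was 0.931, against 0.968 to 0.982 for the other 7 arrays with theirs. Differences of the 5 genes, and of some other genes that move with this array, are also given without it. Array medians lay between 3.46 and 3.49 for arrays labelled fbn5-1. For arrays labelled WT they were all lower, between 3.42 and 3.45. Of the 8 leaf markers listed, 4 had a probe set of their own, and their means lay between 7.99 (PRK) and 10.97 (RCA) in arrays labelled fbn5-1 and between 8.06 (PRK) and 11.0 (RCA) in arrays labelled WT. PSAE-1, a photosystem I subunit, was the 1 of these 4 that passed the test, lower by -0.17 (SE 0.05, adjusted p = 0.0392 by limma). Among all tested probe sets 16.8% passed. Of 6 root markers, PYK10, a beta-glucosidase, was bright, at 9.26 to 9.72 on arrays labelled fbn5-1 and at 9.23, 9.70, 9.34 and 6.84 on arrays labelled WT, EXPA7 averaged below the filter value of 2.79, and the other 4 had no probe set of their own. The part of root or other cells in the results was not tested.

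Both chloroplast ascorbate peroxidases had higher signals in the arrays labelled fbn5-1. SAPX, the enzyme of the stroma, had a log2 signal of 5.84, 5.95, 5.94 and 5.59 on arrays labelled fbn5-1 1 to 4, against 5.02, 5.18, 5.0 and 4.76 on arrays labelled WT 1 to 4. The groups did not overlap, and the lowest fbn5-1 array lay 0.41 above the highest WT array. The difference was 0.84 (SE 0.12), or 1.79-fold. It was the widest of the 5 and larger in size than that of 95.3% of all tested probe sets. TAPX, the enzyme bound to thylakoids, had signals of 9.45, 9.26, 9.34 and 9.51 on arrays labelled fbn5-1, against 9.11, 9.06, 8.86 and 9.07 on arrays labelled WT. These groups did not overlap either, but were only 0.15 apart. The TAPX difference was 0.36 (SE 0.08), or 1.29-fold, and larger in size than that of 71.2% of tested probe sets.

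Both thiol genes had lower signals in the arrays labelled fbn5-1. SRX, which reduces overoxidised 2-Cys peroxiredoxins back to their active form, had signals of 4.24, 4.12, 4.08 and 4.26 on arrays labelled fbn5-1, against 4.52, 4.50, 4.46 and 4.75 on arrays labelled WT. The groups were 0.20 apart, and WT array 4 was the highest of all 8. Its difference was -0.38 (SE 0.10), which put the arrays labelled fbn5-1 at 76.7% of the WT level. TRXF2, which activates Calvin-Benson cycle enzymes by reducing their disulfides, had signals of 7.46, 7.38, 7.38 and 7.59 on arrays labelled fbn5-1, against 7.99, 7.90, 7.70 and 7.89 on arrays labelled WT. The groups were 0.11 apart, the narrowest gap among the 4 genes without overlap. Its difference was -0.42 (SE 0.09), at 74.9% of the WT level.

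NDC1, which passes electrons from NAD(P)H to plastoquinone and is needed for phylloquinone synthesis, was the gene whose groups overlapped. Its signals were 5.56, 5.49, 5.40 and 5.50 on arrays labelled fbn5-1, against 5.12, 4.94, 4.87 and 5.48 on arrays labelled WT. WT array 4 lay inside the fbn5-1 range, and the other WT arrays lay below it. The difference was 0.39 (SE 0.14), or 1.31-fold, and was 0.51 without WT array 4, or 1.42-fold. WT array 4 was 0.50 above the mean of the other 3 WT arrays for NDC1 and 0.26 above it for SRX. For SAPX it was lower, with a deviation of -0.31, while for TAPX and TRXF2 the deviations were 0.06 and 0.03. Without WT array 4 the differences were 0.76 for SAPX, 0.38 for TAPX, -0.32 for SRX and -0.41 for TRXF2.

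**Figure D1:**
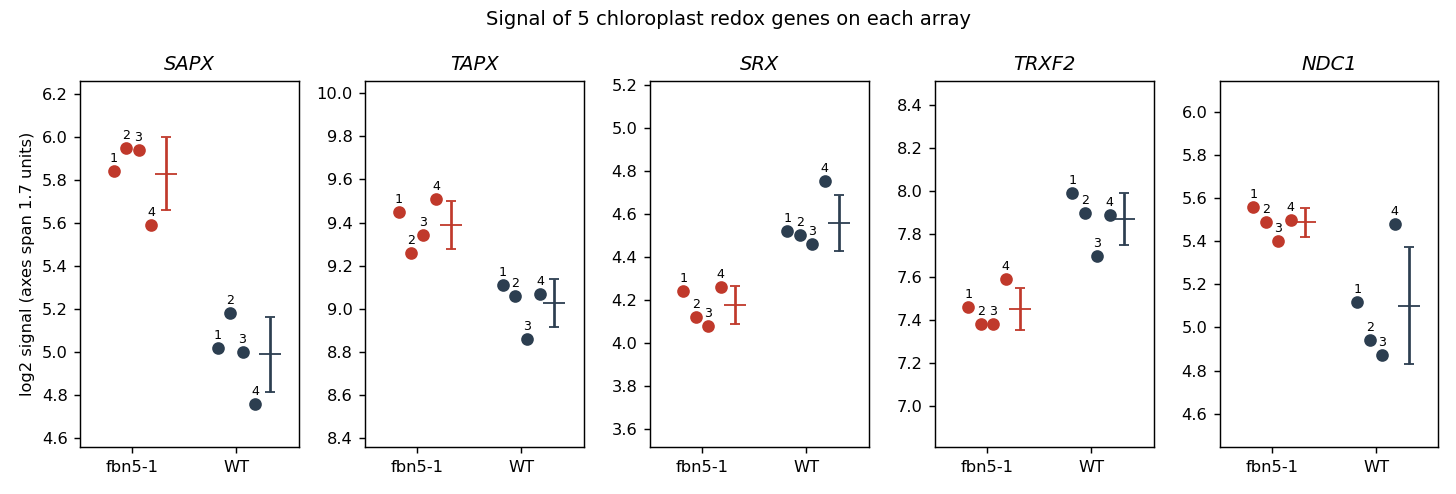
Log2 signal of each gene (y axes, each spanning 1.7 units) on the arrays labelled fbn5-1 (left, red) and WT (right, dark blue), with array numbers beside the points and the mean ± SD (n = 4) at the side. The groups are separate for SAPX, TAPX, SRX and TRXF2, and for NDC1 WT array 4 (5.48) lies among the arrays labelled fbn5-1 (5.40 to 5.56).

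Means and spreads within a genotype show how far apart the groups were. SAPX averaged 5.83 ± 0.17 in arrays labelled fbn5-1 and 4.99 ± 0.17 in arrays labelled WT (SD, n = 4 each). TAPX averaged 9.39 ± 0.11 in arrays labelled fbn5-1 and 9.03 ± 0.11 in arrays labelled WT. SRX averaged 4.17 ± 0.09 in arrays labelled fbn5-1 and 4.56 ± 0.13 in arrays labelled WT. TRXF2 averaged 7.45 ± 0.10 in arrays labelled fbn5-1 and 7.87 ± 0.12 in arrays labelled WT. NDC1 averaged 5.49 ± 0.07 in arrays labelled fbn5-1 and 5.10 ± 0.27 in arrays labelled WT, so its spread was the narrowest of the 5 in fbn5-1 and the widest in WT.

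The comparison of genotypes was itself used to pick these genes, so their differences are descriptions. Testing was limited to probe sets averaging above the 40th percentile, a log2 signal of 2.79, which all 5 passed. Calls were made at an adjusted p under 0.05 (limma, two-sided, Benjamini-Hochberg over 17147 probe sets), and 16.8% of tested probe sets were called, 8.22% higher and 8.55% lower in arrays labelled fbn5-1. SAPX and TAPX were among those called higher, SRX and TRXF2 among those called lower, and NDC1 was not called. Groups did not overlap for 23.6% of tested probe sets and for 4 of the 5 genes. Because the genes were chosen on this contrast, nothing is read from either count.

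Other settings moved the sizes of these differences. Filters, the trend and the replicate block cannot change a difference of group means, and where groups do not overlap, leaving out an array cannot turn its direction. SAPX differences lay between 0.76 and 0.92 over the 8 fits that leave out 1 array, and those of TAPX between 0.31 and 0.41. The corresponding ranges were -0.41 to -0.32 for SRX, -0.47 to -0.38 for TRXF2 and 0.31 to 0.51 for NDC1. With 16 added to the linear signal, which damps dim probe sets, the differences shrank to 0.61 for SAPX, -0.22 for SRX and 0.27 for NDC1. Those of TAPX and TRXF2 were then 0.35 and -0.39. Some scalings gave values outside the ranges with 1 array left out. Quantile normalization gave 0.457 for TAPX and -0.344 for TRXF2, and centring arrays on their median gave -0.422 for SRX. Array weights gave 0.471 for NDC1, inside its range.

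**Figure D2:**
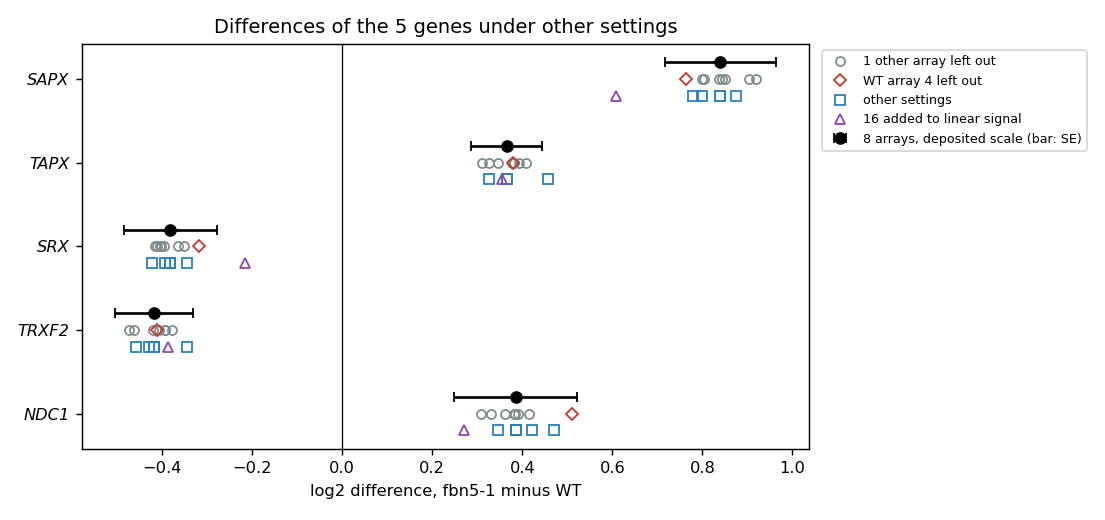
Log2 difference, fbn5-1 minus WT (x axis), of each gene under the settings tried, with the SE as a bar on the value from all 8 arrays. SAPX, TAPX and NDC1 lie above 0 and SRX and TRXF2 below 0 in the settings drawn, and leaving out WT array 4 gives the highest NDC1 difference, 0.51.

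Within a genotype, some of these genes varied together from array to array. Deviations of each array from its genotype mean were compared for the 10 pairs. These deviations do not enter the difference of genotype means, but their size enters its SE and so the calls. An exact permutation test over the 576 orders within genotypes was used (two-sided, adjusted over 10 pairs). TAPX and TRXF2 deviated together, although their genotype differences had opposite signs (r = 0.941, exact permutation p = 0.00694, adjusted p = 0.0347, n = 8 arrays; Spearman rho = 0.898, adjusted p = 0.0608). The correlation was 0.934 without the 2 arrays farthest from the median of TAPX, and 0.904 among arrays labelled fbn5-1 and 0.980 among arrays labelled WT. WT array 3 was lowest of its group for both genes, and fbn5-1 array 4 highest of its group. NDC1 and SRX also deviated together (r = 0.887, exact permutation p = 0.00521, adjusted p = 0.0347; Spearman rho = 0.905, adjusted p = 0.0608). That relation rested in part on WT array 4, since r was 0.615 without it, and 0.653 without WT arrays 3 and 4, which are farthest from the median. SAPX and SRX deviated in opposite directions (r = -0.824, exact permutation p = 0.0278), which did not hold after adjustment (adjusted p = 0.0926), and r was -0.353 without array 4 of each genotype. In rank terms (Spearman) no pair passed, and by r the other 7 pairs had adjusted p of 0.299 or more. All deviations share the array's own scaling, whose part was not tested. How often other pairs of genes reach such correlations was not counted, so nothing particular to these 5 genes is read from them. The 3 genes most like TAPX, none of them a member, had r of 0.970, 0.963 and 0.961 with it.

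**Figure D3:**
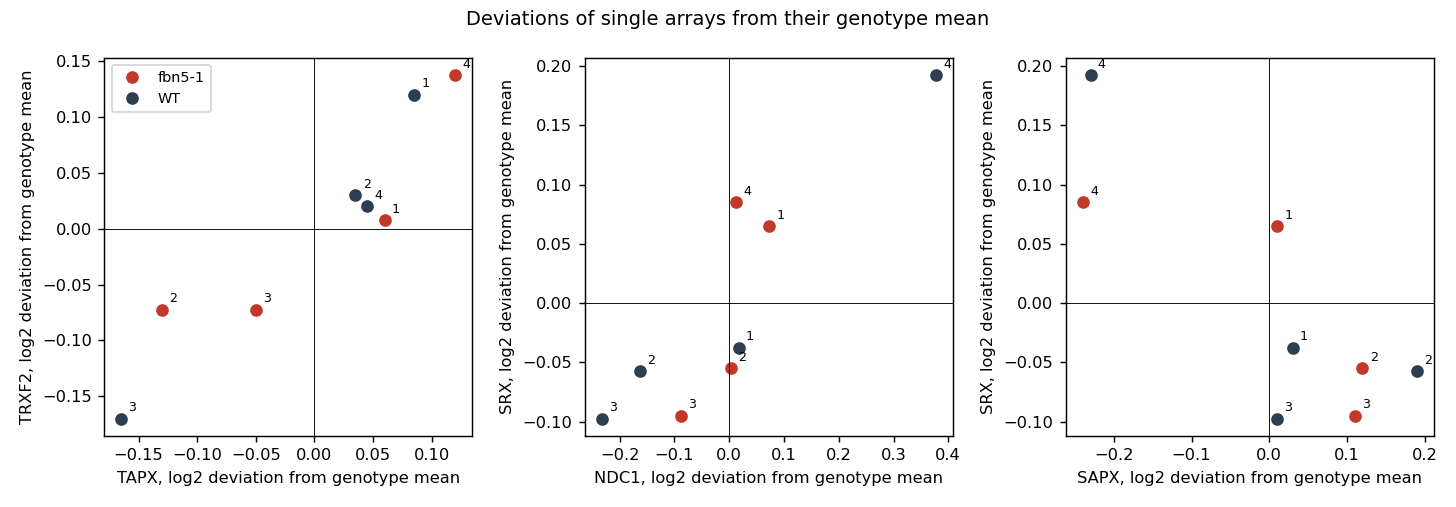
Log2 deviation of each array from the mean of its genotype for 3 pairs of genes, with arrays labelled fbn5-1 in red, arrays labelled WT in dark blue and array numbers beside the points. TAPX and TRXF2 fall along a rising line in both genotypes (r = 0.941), while WT array 4 lies at the edge for NDC1 with SRX and for SAPX with SRX.

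The genes whose deviations were most like those of each member were taken over the same 8 arrays, from tested genes named alone. They are the highest of a very large number of correlations over few arrays. Values this high may therefore arise without any relation between the genes, which was not tested. For SAPX the 3 highest correlations were with AT3G16330, AT1G61590 and AT3G26470 (r = 0.980, 0.977 and 0.977). For TAPX they were with AT5G22280, AT4G28450 and AT3G12390 (r = 0.970, 0.963 and 0.961), and for TRXF2 with AT1G77250, AT1G22970 and AT1G47900 (r = 0.985, 0.958 and 0.949). SRX was most like AT2G47890, AT4G17140 and AT3G05937 (r = 0.974, 0.972 and 0.972), and NDC1 most like AT1G15250, AT3G58530 and AT4G02200 (r = 0.973, 0.973 and 0.971). Of these 15 genes, 3 passed the test between genotypes, a share near the 16.8% of all tested probe sets. AT2G47890 fell by 0.96 (SE 0.15, adjusted p = 0.00485), AT3G58530 fell by 0.55 (SE 0.10, adjusted p = 0.00875), and AT1G47900 rose by 0.45 (SE 0.11, adjusted p = 0.0235). AT2G47890 was lower in arrays labelled fbn5-1, as SRX was, whereas AT3G58530 was lower and NDC1 higher.

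Further genes of these pathways were taken from 9 lists of 111 genes. Only 23 had a probe set of their own and 20 were tested; 4 rose in arrays labelled fbn5-1, 0 fell and 16 were not called (20.0% called, against 16.8% of all tested probe sets). Their median difference was 0.06, and that of all tested probe sets -0.01. No other ascorbate peroxidase, superoxide dismutase or catalase of the lists was named alone, so SAPX and TAPX could not be set beside their closest relatives.

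Of 5 tested genes of ascorbate synthesis and the ascorbate-glutathione cycle, which make and regenerate the ascorbate used by SAPX and TAPX, 2 rose and 0 fell, beside 16.8% of all tested probe sets called. They were 1 of 2 synthesis genes and 1 of 3 cycle genes. GLDH, which catalyses the last step of ascorbate synthesis in mitochondria, had signals of 5.65, 5.32, 5.23 and 5.14 on arrays labelled fbn5-1, against 4.96, 4.84, 4.80 and 4.82 on arrays labelled WT. The groups did not overlap, and the gene rose by 0.48 (SE 0.12, adjusted p = 0.0285). GR, the glutathione reductase of chloroplasts and mitochondria, had signals of 7.27, 7.49, 7.5 and 7.39 on arrays labelled fbn5-1, against 7.21, 7.16, 7.15 and 7.02 on arrays labelled WT, and rose by 0.28 (SE 0.08, adjusted p = 0.0478). Both calls were fragile. GLDH kept its call in 3 of the 8 fits that leave out 1 array and lost it without fbn5-1 arrays 2 and 3 and WT arrays 1, 2 and 3 (highest adjusted p 0.0725, without WT array 3). GR kept it only when fbn5-1 array 1 was the one left out, its highest adjusted p being 0.121 (without fbn5-1 array 3), and lost it with arrays centred on their median, without a filter and without an intensity trend. GR1, the cytosolic glutathione reductase, MDAR2, a monodehydroascorbate reductase, and VTC4, of ascorbate synthesis, had differences of 0.29, 0.00 and 0.06 and were not called. Without WT array 4 the VTC4 difference was -0.13, again not called (adjusted p = 0.593 by limma).

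Among peroxiredoxins, the proteins on which SRX acts could be followed through 2CPA (AT3G11630), a chloroplast 2-Cys peroxiredoxin. Its signals were 10.0, 9.68, 10.07 and 10.11 on arrays labelled fbn5-1, against 9.85, 9.80, 9.79 and 9.74 on arrays labelled WT. The groups overlapped through fbn5-1 array 2, and the difference of 0.17 was not called (SE 0.09, adjusted p = 0.234). Without that array it was 0.26 and called (adjusted p = 0.0216). PRXIIE (AT3G52960), a chloroplast peroxiredoxin of another type, had signals of 3.32, 3.11, 3.37 and 3.42 on arrays labelled fbn5-1, against 2.81, 2.86, 2.79 and 3.03 on arrays labelled WT. It rose by 0.43 (SE 0.11, adjusted p = 0.03) from a level close to the filter value, and kept its call in 2 of the 8 fits that leave out 1 array, those without fbn5-1 array 2 and WT array 4. Its highest adjusted p was 0.0774 (without WT array 3), and the call also ended with quantile normalization. PRXIIF, the mitochondrial form, had a difference of -0.29 (SE 0.19, adjusted p = 0.329), and of -0.49 without WT array 4 (adjusted p = 0.0124).

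Among plastid thioredoxins and their reductases, 1 of 4 tested genes rose and 0 fell, a count near the background of 16.8% called. TY2 (AT1G43560), a y-type thioredoxin known to feed electrons to antioxidant enzymes, had signals of 7.70, 7.67, 7.49 and 7.63 on arrays labelled fbn5-1, against 7.09, 7.17, 7.01 and 7.23 on arrays labelled WT. The groups did not overlap, and the gene rose by 0.50 (SE 0.08, adjusted p = 0.00551), to 1.41 times the WT level. Its call held in all 16 alternatives, and its highest adjusted p was 0.0238. TRXM2 (AT4G03520), an m-type thioredoxin, and THX, the x-type, had differences of -0.15 (SE 0.08) and -0.11 (SE 0.08) and were not called, with adjusted p of 0.216 and 0.35. FTRB (AT2G04700), the catalytic subunit of the reductase that passes electrons from ferredoxin to TRXF2 and other thioredoxins, was at 6.64, 6.46, 6.65 and 6.60 on arrays labelled fbn5-1, against 6.41, 6.52, 6.35 and 6.75 on arrays labelled WT (difference 0.08, SE 0.10, adjusted p = 0.641). TY1, the other y-type gene, was below the filter, and TRXF1, the closest relative of TRXF2, had no probe set of its own.

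Of 5 tested photosynthesis enzymes regulated through thiols, among them known targets of f-type thioredoxins, 0 were called at the adjusted threshold. With 16.8% of all tested probe sets called, 0 of 5 says little about these enzymes. SBPASE had a difference of 0.23 (SE 0.08, adjusted p = 0.0868, and 0.0366 without WT array 1). PRK, RCA, ATPC1 and NADP-MDH (AT5G58330) had differences between -0.07 and 0.00. The quinone side was sparsely covered. NDB2, a mitochondrial relative of NDC1, had a difference of 0.06 (SE 0.16), MENG, a methyltransferase of phylloquinone synthesis, had one of -0.01 (SE 0.12), and neither was called. NDB3 and NDB4 were below the filter. STZ, a zinc finger factor induced by peroxide and high light, was at 5.56, 6.79, 6.70 and 6.53 on arrays labelled fbn5-1, against 4.17, 4.33, 4.95 and 9.85 on arrays labelled WT. On all 8 arrays it was not called (difference 0.57, SE 1.12), and without WT array 4, where 22.5% of probe sets were called, it was higher by 1.91 (adjusted p = 0.00323).

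A further 13 genes carry a redox word such as thioredoxin, glutaredoxin or sulfoxide reductase in their RefSeq names, a set drawn up after the symbols on the array were known. Of 11 tested, 2 rose, 2 fell and 7 were not called (36.4% called, beside 16.8% of all tested probe sets), with a median difference of -0.15. GrxC5, a chloroplast glutaredoxin, had signals of 6.23, 6.03, 6.30 and 6.19 on arrays labelled fbn5-1, against 5.60, 5.77, 5.80 and 5.90 on arrays labelled WT, and rose by 0.42 (SE 0.10, adjusted p = 0.0217). CCS, the chaperone that delivers copper to superoxide dismutases, had signals of 4.83, 4.74, 4.74 and 4.83 on arrays labelled fbn5-1, against 5.14, 5.32, 4.99 and 5.23 on arrays labelled WT, and fell by 0.38 (SE 0.10, adjusted p = 0.0291). GrxC5 kept its call in 4 of the 8 fits that leave out 1 array (highest adjusted p 0.0619, without fbn5-1 array 3), and CCS in 2 of them (highest adjusted p 0.0833, without WT array 2).

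Methionine sulfoxide reductases of type B, which repair oxidised methionine with electrons from thioredoxins, did not move one way. MSRB4 (AT4G04810) had signals of 6.22, 6.49, 5.96 and 5.88 on arrays labelled fbn5-1, against 7.86, 7.81, 7.57 and 6.60 on arrays labelled WT. It fell by 1.32 (SE 0.27, adjusted p = 0.0132), to 0.40 times the WT level, and was called in all 16 alternatives. MSRB6 (AT4G04840), close to it in the genome, had signals of 4.51, 4.56, 4.68 and 4.34 on arrays labelled fbn5-1, against 3.37, 3.72, 3.73 and 4.28 on arrays labelled WT. It rose by 0.75 (SE 0.18, adjusted p = 0.0249), and kept its call in 2 of the 8 fits that leave out 1 array, those without fbn5-1 array 4 and WT array 4 (highest adjusted p 0.0683, without fbn5-1 array 3). MSRB5 (AT4G04830) had a difference of -0.69 (SE 0.35, adjusted p = 0.21), and of -1.06 without WT array 4 (adjusted p = 0.00545). MSRB3 (AT4G04800) had a difference of -0.26 without overlap of the groups and was not called (SE 0.09, adjusted p = 0.0669 by limma). It was called with arrays centred on their median (adjusted p = 0.0398) and with the 60th percentile filter (adjusted p = 0.0462). MSRB9 had a difference of 0.07 (SE 0.23) and was not called. On WT array 4 MSRB4 and MSRB5 were the lowest and MSRB6 the highest of the WT arrays. Without that array the differences were -1.61 for MSRB4 and 0.92 for MSRB6. These genes are similar in sequence, so their probe sets may share signal, which was not tested.

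**Figure D4:**
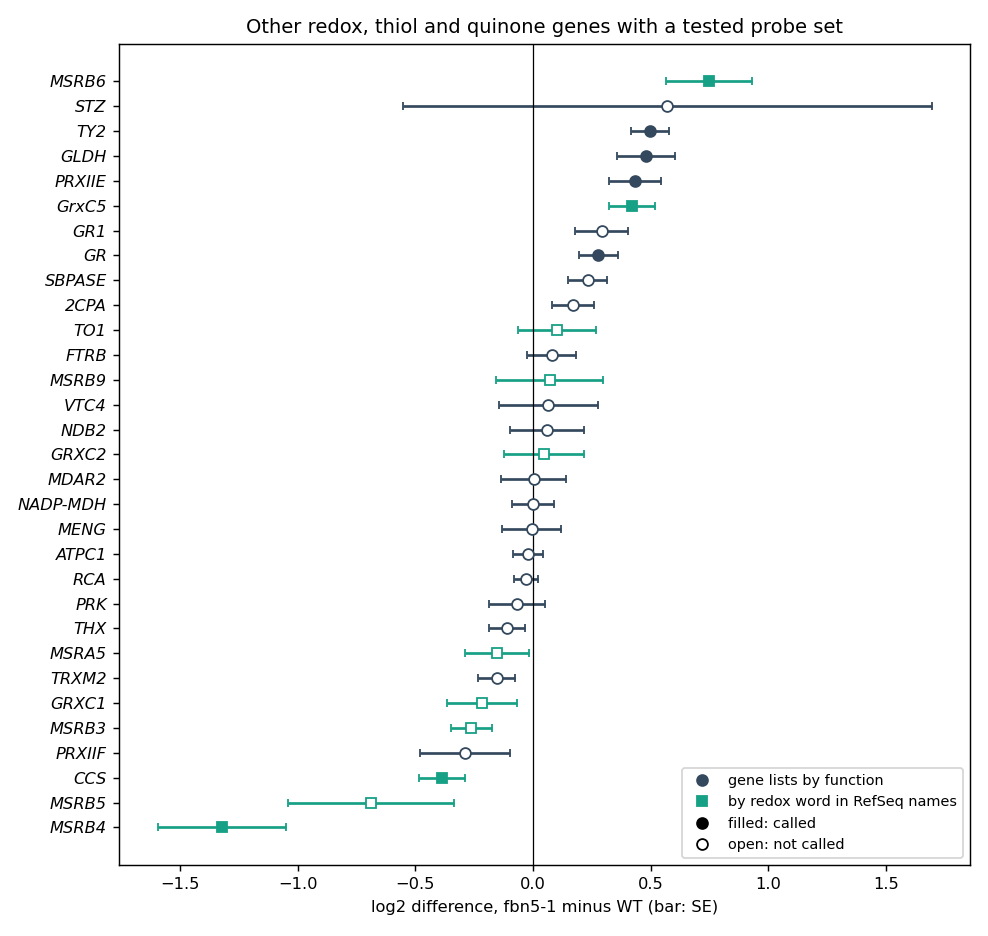
Log2 difference, fbn5-1 minus WT (x axis, bars show the SE), of the 31 other redox, thiol and quinone genes with a tested probe set, filled where called and open where not. Called genes lie on both sides of 0, from MSRB4 at -1.32 to MSRB6 at 0.75, and the bar of STZ is the widest.

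NDC1, TRXF2 and FBN5 all lie on chromosome 5, and the stretch between TRXF2 and FBN5 was not counted. Between NDC1 and FBN5 lie 80 genes in RefSeq order. Of these, 21 had a tested probe set of their own, of which 1 was called higher and 0 lower (4.76%, against 16.8% of all tested probe sets). The nearest tested genes of each member, 2 on each side and 20 in all, had differences between -1.05 and 0.46, with 0 called higher and 2 lower. AT5G16410, which directly follows TRXF2, fell by 1.05 (SE 0.26, adjusted p = 0.0256), the same direction as TRXF2. AT4G08455, separated from SAPX by 14 genes in RefSeq order, fell by 0.57 (SE 0.15, adjusted p = 0.034), the opposite direction to SAPX. No neighbour of TAPX, SRX or NDC1 was called. Groups still did not overlap for AT1G31130 and AT1G31175 near SRX and for AT1G77420 near TAPX, beside 23.6% of all tested probe sets. Their differences were -0.425, -0.268 and -0.375, the direction of SRX and opposite to that of TAPX.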

How the data were processed

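For each probe set on each array the authors deposited a single value; the submitters' processing notes name MAS5, and background correction, summarization, scaling and log transform are not given in the sources used here. The deposited values are taken as log2 from their range. The series matrix of 28583 probe sets was used; a longer series table was not used here. GEO's platform annotation gives 1 symbol to 16746 of them, several to 758 and none to 11079; 16601 of the 16746 were found by gene number in a RefSeq gene table (TAIR10.1), used for names and gene order only. A gene is represented by its brightest probe set that names it alone. Probe sets with a mean above the 40th percentile (17147) were compared with limma 3.58.1 in R 4.3.3 (lmFit, eBayes with intensity trend, 4 against 4 arrays, Benjamini-Hochberg), after a check on simulated data. The number of arrays limits the precision. Members and lists were chosen with earlier results of these data known. Genes named are the members, FBN5, called list genes and close relatives, the 3 most alike genes per member, and, added after the values were seen, redox-named genes, map neighbours and list genes that changed with 1 array. Alternatives were 2 scalings, 16 added to the linear signal, 2 filters, no trend, array weights, a replicate block and leaving out each array. Replicate numbers were not used to pair the arrays in the main fit. Same-numbered arrays had correlations of deviations of 0.157, -0.187, -0.0367 and 0.00185, and differently numbered ones of -0.188 to 0.156. Whether a shared number marks a shared batch was not tested. The planned use of other probe sets per member was not possible, since each has 1.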

Additional observations from a re-analysis of the deposited data

Results flagged for a closer look

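Of 58 groups of 4 arrays examined for an outlying array (Dixon's ratio above its 95% critical value, which about 1 in 20 groups passes by chance), 4 were picked out, and none of them belongs to SAPX, TAPX, SRX, TRXF2 or NDC1. WT array 4 was far above the other WT arrays for FBN5 (5.15) and for STZ (9.85). fbn5-1 array 4 was far below the others of its group for MDAR2 (5.79), and WT array 1 was above the others of its group for THX (7.92).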

How the results depend on the processing

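Differences of the 5 genes, in the settings that could change them (scalings, array weights, arrays left out and added signal), moved by less than 1 SD except with 16 added to the linear signal, where SAPX had 0.609 and SRX -0.216. The 2876 probe sets called became 4450 with array weights, 1731 with the replicate block, and 1736 to 3854 when 1 array was left out (lowest without WT array 2, highest without WT array 4). Their split by direction, 1410 higher and 1466 lower in arrays labelled fbn5-1, also moved with the scaling. It was 1612 higher and 1320 lower with quantile normalization, and 1231 higher and 1879 lower with arrays centred on their median. The 4 list genes called became 2 with the replicate block and 1 to 5 when 1 array was left out. With 16 added, PRXIIE had 0.15 and MSRB6 0.38, against 0.43 and 0.75 on the deposited scale, and both were still called. With the replicate block, GR, PRXIIE, GrxC5, CCS and MSRB6 were no longer called. The labels give the arrays only a shared number, so this is no measure of a batch effect.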
